A study of Mus musculus with 6 samples.

Results

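The 7 genes described here encode proteins of the parts of the myelin sheath in which the layers of oligodendrocyte membrane are not pressed together, and of its outer surface. They are Mag, Cnp, Mog, Opalin, Ermn, Aspa and Anln, found as 7 rows, 1 for each exact gene symbol, of a table of 24411 usable genes. They were measured in mouse brain by RiboTag, a method in which cells that have undergone Cre recombination make the ribosomal protein Rpl22 with an HA tag, so that an HA antibody pulls down their ribosomes with the bound mRNA.

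The icKO mice (NG2CreERTM;Ank3F/F;Rpl22HA/+) were homozygous for a floxed Ank3 gene, which encodes the scaffold protein ankyrin-G, and control mice (NG2CreERTM;Rpl22HA/+) had the same driver and tag with no floxed Ank3. All mice, controls included, received tamoxifen at 100 mg/kg per day for 5 days, given at 8 weeks of age, and were analysed 1 month later. There were 2 icKO pull-down libraries (icKO IP), 2 control pull-down libraries (control IP), 1 icKO input and 1 control input, each from a pool of 3 animals. The icKO IP library numbered 1 is titled cKO, but its genotype label is AnkG icKO. The inputs are 10% of the cleared whole-brain homogenate, although their cell type label also reads oligodendrocytes. NG2 is made by oligodendrocyte precursors and by pericytes, so tagged ribosomes can come from either lineage and from the descendants of recombined precursors.

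Oligodendrocytes wrap axons with layers of plasma membrane. In compact myelin the cytoplasm between layers is squeezed out and the membranes are held tightly together, whereas the innermost and outermost tongues, the paranodal loops and narrow channels through the sheath keep their cytoplasm. Mag is a sialic acid-binding adhesion protein of the membrane that faces the axon. Cnp is a cyclic nucleotide phosphodiesterase that keeps cytoplasmic channels of the sheath open. Mog is an immunoglobulin-domain protein on the outermost layer and a target of autoantibodies. Opalin is a transmembrane glycoprotein of oligodendrocytes. Ermn (ermin) is an actin-binding protein of the oligodendrocyte cytoskeleton. Aspa, aspartoacylase, splits N-acetylaspartate into aspartate and acetate, which can feed lipid synthesis, and its loss causes Canavan disease. Anln (anillin) binds actin and septins, has a general role in cell division, and is part of a septin scaffold in the cytoplasmic spaces of myelin.

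The promoters of 5 members are shown because Sox10 and Myrf, transcription factors that switch on myelin genes, are themselves among the measured genes, and because Anln stood apart from the other members in the pull-down. Each window is the 250 bases before the RefSeq transcription start (GRCm38.p6, the build also called mm10), given 5′ to 3′ on the gene's strand. A core letter pattern bound by SOX proteins (ACAAAG) and a loose pattern for Myrf (CTGGNAC, N being any base) are in capitals. They are marked where they occur on either strand, and no matches of these patterns overlapped each other. The loose form can match sequences that Myrf does not bind.
Mag: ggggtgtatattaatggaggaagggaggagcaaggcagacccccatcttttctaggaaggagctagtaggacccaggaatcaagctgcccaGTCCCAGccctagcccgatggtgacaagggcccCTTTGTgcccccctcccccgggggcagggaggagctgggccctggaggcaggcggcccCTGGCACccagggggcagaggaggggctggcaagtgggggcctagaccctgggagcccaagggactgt
Cnp: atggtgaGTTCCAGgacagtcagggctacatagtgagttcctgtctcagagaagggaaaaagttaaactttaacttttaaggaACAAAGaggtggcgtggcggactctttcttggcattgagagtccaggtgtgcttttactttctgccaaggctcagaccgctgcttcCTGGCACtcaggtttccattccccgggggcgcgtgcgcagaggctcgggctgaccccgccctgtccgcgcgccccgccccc
Mog: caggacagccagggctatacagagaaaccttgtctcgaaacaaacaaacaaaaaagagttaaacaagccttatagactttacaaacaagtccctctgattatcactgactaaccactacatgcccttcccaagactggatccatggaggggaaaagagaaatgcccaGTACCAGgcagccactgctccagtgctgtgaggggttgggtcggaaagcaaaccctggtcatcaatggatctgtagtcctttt
Opalin: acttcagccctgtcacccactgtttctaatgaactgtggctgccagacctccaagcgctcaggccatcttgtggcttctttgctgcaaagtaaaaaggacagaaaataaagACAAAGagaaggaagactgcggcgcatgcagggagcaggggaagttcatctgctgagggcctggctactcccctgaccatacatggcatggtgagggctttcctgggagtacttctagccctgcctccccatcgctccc
Anln: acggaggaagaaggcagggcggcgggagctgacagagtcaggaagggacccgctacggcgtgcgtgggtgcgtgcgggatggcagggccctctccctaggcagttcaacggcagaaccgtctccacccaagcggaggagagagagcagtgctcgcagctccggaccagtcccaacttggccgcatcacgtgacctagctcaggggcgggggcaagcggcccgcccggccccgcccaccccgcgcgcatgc
The Mag window lies at chr7:30914864-30915113 (minus strand), the Cnp window at chr11:100574689-100574938 (plus strand) and the Mog window at chr17:37023399-37023648 (minus strand). The Opalin window lies at chr19:41077114-41077363 (minus strand) and the Anln window at chr9:22389207-22389456 (minus strand). RefSeq lists 3 start sites for Mag, and the one nearest the 5′ end of the GENCODE gene is shown.

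The Mag and Cnp windows each held 1 SOX core and 2 Myrf patterns, the Mog window 1 Myrf pattern and the Opalin window 1 SOX core. The Anln window held neither, and the Ermn and Aspa windows, not shown, also held neither. Among all 32536 windows of the same length, 16.5% held the SOX core and 15.9% the Myrf pattern. The GC box (GGGCGG, either strand), which was not capitalised, occurred 4 times in the Anln window, 2 times in the Cnp window and in none of the other 5, against 33.0% of all windows. The G and C content was 70.4% in the Anln window and 66.0% in the Mag window, and ran from 38.8% to 57.2% in the other 5. For Aspa the RefSeq start lies 4959 bases from the 5′ end of the GENCODE gene. A match of these letters is not a measured binding site.

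All 7 genes are protein coding. In mm10 with GENCODE vM21, Mag (ENSMUSG00000036634) lies at chr7:30899176-30914873, Cnp (ENSMUSG00000006782) at chr11:100574904-100591729 and Mog (ENSMUSG00000076439) at chr17:37010743-37023398. Opalin (ENSMUSG00000050121) lies at chr19:41061710-41077113, Ermn (ENSMUSG00000026830) at chr2:58045113-58052864, Aspa (ENSMUSG00000020774) at chr11:73304992-73329596 and Anln (ENSMUSG00000036777) at chr9:22332012-22389188. Cnp and Aspa share a chromosome but are far apart on it. Cnp is on the plus strand and the other 6 are on the minus strand. Exons of Cnp share 154 bases with Dnajc7 on the opposite strand, which had 15111 counts over all 6 libraries, and exons of Ermn share 237 bases with Galnt5, which had 3. Whether the counting used strand is not given in the sources used here, and without strand a small part of the Cnp count could come from Dnajc7.

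Library totals ran from 18968806 to 23930812 counts. The label's cell type was checked against markers in IP over input. Higher were 24 of 24 precursor markers, 35 of 39 mature oligodendrocyte markers and 14 of 14 pericyte and smooth muscle markers. Lower were 19 of 20 neuronal markers and 15 of 15 microglial markers. Of all genes tested, 34.2% were higher and 34.2% lower. Ank3, counted over all its exons and so also outside any deleted part, had 1160.0 and 1163 CPM in icKO IP, against 1391 and 1363 CPM in control IP, with 346 CPM in icKO input and 381 CPM in control input. Its log2 change in IP was -0.23 ± 0.02 (SE; adjusted p = 1.31e-10, edgeR's quasi-likelihood test, Benjamini-Hochberg adjusted). Rpl22, the tagged gene, had 45.6 and 41.8 CPM in icKO IP and 48.4 and 54.2 CPM in control IP, a log2 change of -0.22 ± 0.07 (SE; adjusted p = 0.0078, the same test). Levels here are CPM, counts scaled to a common library total, with TMM factors from the 6 libraries.

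The first comparison asked which of the 7 genes were on tagged ribosomes more than in the whole brain. Of the members, 6 were enriched in IP over input, by 3.45-fold to 10.2-fold, and Anln was not. Mag had the steepest enrichment and Ermn the shallowest of the 6. In bulk samples such as these, fewer tagged cells of a type and less RNA per tagged cell cannot be told apart. The labels do not say whether the pools of a genotype held different mice or litters. Every p-value here thus reflects the spread of these few samples alone, and that spread may be technical. In the fit of IP against input over both genotypes, the spread also took in the difference in enrichment between the genotypes. There the SE for Mog was 0.16, against 0.05 within control and 0.06 within icKO. The members' summed share of all counts was 0.381% and 0.385% in the icKO IP libraries, 0.539% and 0.542% in the control IP libraries, 0.0612% in icKO input and 0.0585% in control input. The exact 95% binomial intervals of these shares, which cover counting error only, ran from 0.379% to 0.384% and from 0.382% to 0.388% in icKO IP, and from 0.536% to 0.543% and from 0.539% to 0.545% in control IP. In the inputs the intervals were 0.0601% to 0.0623% for icKO and 0.0575% to 0.0596% for control.

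Mag, on the axon-facing membrane, had 1305 and 1333 CPM in icKO IP and 1638 and 1598 CPM in control IP, against 145 CPM in icKO input and 140.3 CPM in control input. All 4 IP libraries were far above both inputs, and both icKO IP libraries were below both control IP libraries. Over both genotypes the enrichment was 3.35 ± 0.10 on the log2 scale (SE; adjusted p = 4.61e-09, edgeR's quasi-likelihood test, Benjamini-Hochberg adjusted). Cnp, the channel enzyme, had 2208 and 2226 CPM in icKO IP and 2935 and 2976 CPM in control IP, against 283 CPM in icKO input and 261 CPM in control input. Its IP values did not overlap with the inputs or between genotypes. Its enrichment was 3.23 ± 0.13 (log2, SE; adjusted p = 1.91e-08, the same edgeR test).

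Mog, of the outermost layer, had 167 CPM in each of the icKO IP libraries and 282 and 288 CPM in control IP, against 40.9 CPM in icKO input and 40.2 CPM in control input. The icKO IP values were thus between the inputs and control IP. Opalin, the membrane glycoprotein, had 63.7 and 66.4 CPM in icKO IP and 122 and 124 CPM in control IP, against 14.4 CPM in icKO input and 14.3 CPM in control input. The 4 groups fell in the same order for Opalin as for Mog, with the inputs nearly equal. The log2 enrichment was 2.42 ± 0.16 for Mog (SE; adjusted p = 4.37e-07) and 2.64 ± 0.18 for Opalin (SE; adjusted p = 5.77e-07) by the same edgeR test.

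Ermn, the actin-binding protein, had 190.0 and 178 CPM in icKO IP and 311 and 325 CPM in control IP, against 69.7 CPM in icKO input and 69.6 CPM in control input. Its IP values were above the inputs by less than those of the 4 membrane and channel genes above. Aspa, the enzyme of N-acetylaspartate breakdown, had 19.5 and 20.0 CPM in icKO IP and 29.2 and 28.5 CPM in control IP, against 5.98 CPM in icKO input and 4.95 CPM in control input. The Aspa values rest on few input counts, 123 in icKO input and 109 in control input. The log2 enrichment was 1.78 ± 0.15 for Ermn (SE; adjusted p = 3.38e-06) and 2.13 ± 0.17 for Aspa (SE; adjusted p = 2.05e-06) by the same edgeR test.

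Anln had 36.2 and 33.8 CPM in icKO IP and 34.5 and 42.0 CPM in control IP, against 33.2 CPM in icKO input and 31.4 CPM in control input. The lower control IP library lay between both icKO IP libraries, so the genotypes overlapped, and every IP value was within a few CPM of the inputs except control IP replicate 2. Its log2 enrichment was 0.18 ± 0.10 (SE; 95% interval -0.05 to 0.41; adjusted p = 0.137, edgeR's quasi-likelihood test, Benjamini-Hochberg adjusted). Without icKO input that value was 0.28 (adjusted p = 0.0128, same test).

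In all, 6 of the 7 members were called higher in IP at an adjusted p under 0.05, where 34.2% of the 15936 genes tested were. The median log2 enrichment was 2.42 over the members and 0.02 over all genes.

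**Figure D1:**
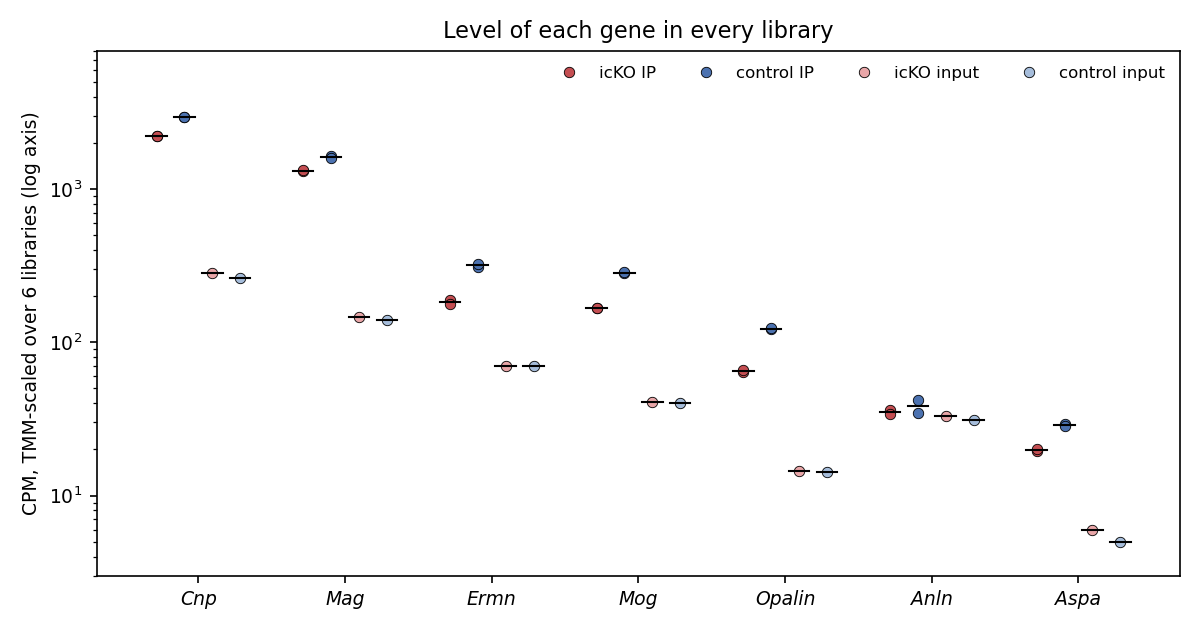
CPM of each member on a log axis in icKO IP, control IP, icKO input and control input, each point 1 library. Every member is higher in every IP library than in either input. For Anln the gap is small, and its points lie between 31.4 and 42.0 CPM in all 6 libraries.

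Within genotypes, IP was set against the lone input of the same genotype in a fit of 4 groups, with the spread of the IP pairs also assumed for each input. Mag was enriched 9.10-fold in icKO and 11.5-fold in control, and Cnp 7.85-fold in icKO and 11.3-fold in control. Mog was enriched 4.10-fold in icKO and 7.08-fold in control, and Opalin 4.52-fold in icKO and 8.58-fold in control. For these 4 genes of the membrane and the cytoplasmic channels the enrichment was smaller in icKO. Ermn was enriched 2.65-fold in icKO and 4.56-fold in control, and Aspa 3.31-fold in icKO and 5.81-fold in control. Anln was 1.06-fold in icKO (log2 0.08, 95% interval -0.13 to 0.30, adjusted p = 0.496) and 1.22-fold in control (log2 0.29, 95% interval 0.08 to 0.50, adjusted p = 0.0138) by the same edgeR test. The Anln call in control did not hold without control IP replicate 2, where the log2 value was 0.14 (adjusted p = 0.292, edgeR). Within icKO 6 of 7 members were called higher, where 34.7% of all genes were, and within control 7 of 7 were, where 34.4% of all genes were.

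**Figure D2:**
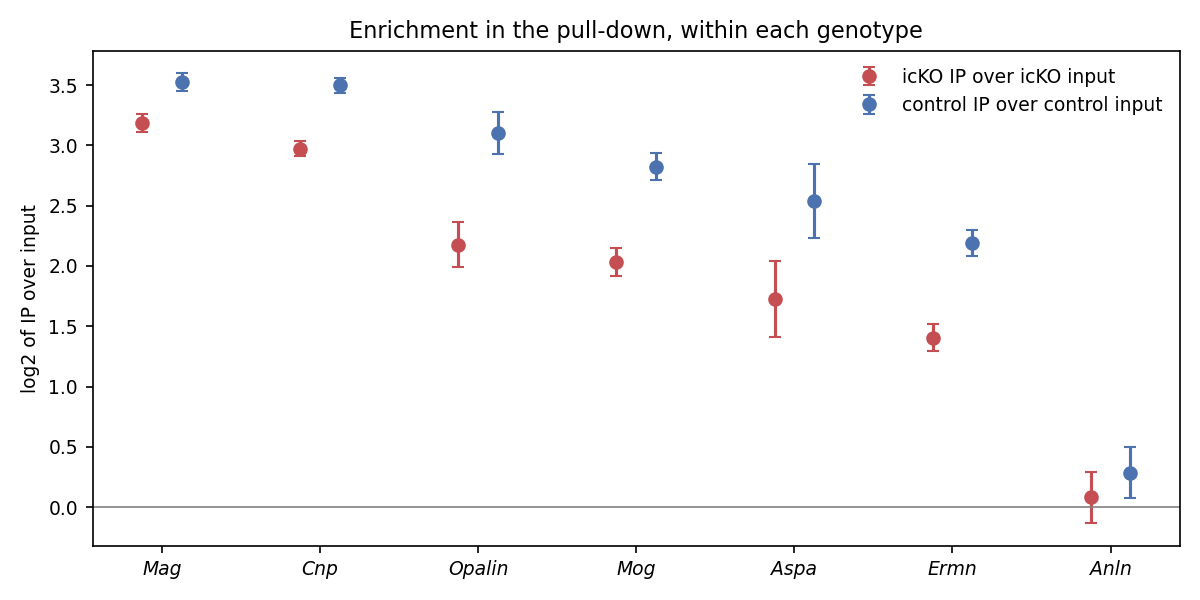
Log2 enrichment of each member in IP over input, within icKO and within control, with 95% intervals from the 4-group fit. The value is lower in icKO for each member, from 3.19 in icKO and 3.53 in control for Mag to 0.08 in icKO and 0.29 in control for Anln.

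Per kilobase of the principal transcript, the order of the members was the same in both genotypes of IP. Mean levels in icKO IP were 941 CPM per kb for Cnp, 542 for Mag, 98.1 for Mog, 50.7 for Ermn, 35.4 for Opalin, 11.3 for Aspa and 7.61 for Anln. In control IP they were 1254 CPM per kb for Cnp, 665 for Mag, 167 for Mog, 87.5 for Ermn, 66.9 for Opalin, 16.5 for Aspa and 8.30 for Anln. No neighbours in either order overlapped between their 2 libraries. In the inputs the ends of the order were different, with Anln at 7.21 CPM per kb in icKO input and 6.81 in control input, above Aspa at 3.42 in icKO input and 2.84 in control input. Anln was also close there to Opalin, which was at 7.85 CPM per kb in icKO input and 7.78 in control input.

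The second comparison asked how the 7 mRNAs on tagged ribosomes differed between mice with and without the induced Ank3 deletion. Of the members, 6 fell in icKO IP against control IP, most for Opalin, Ermn and Mog and least for Mag, and Anln was not called. Relative to control IP, icKO IP held 53.3% of the Opalin level, 58.3% of Ermn, 59.1% of Mog, 68.9% of Aspa, 75.6% of Cnp, 82.2% of Mag and 92.1% of Anln.

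Opalin averaged 65.1 ± 1.87 CPM in icKO IP and 123 ± 1.81 CPM in control IP (SD, n = 2 each). Ermn averaged 184 ± 8.25 CPM in icKO IP and 318 ± 9.74 CPM in control IP, and Mog 167 ± 0.02 CPM in icKO IP and 285 ± 3.98 CPM in control IP (SD, n = 2 each). For each of these the genotypes differed by more than the 2 libraries of a genotype did. An SD of 2 libraries is imprecise. That of Mog in icKO IP is below the 0.053 and 0.055 CPM that 1 count makes there, so it does not measure precision. Their log2 changes were -0.91 ± 0.05 for Opalin (SE; adjusted p = 9.32e-17), -0.78 ± 0.03 for Ermn (SE; adjusted p = 9.37e-19) and -0.76 ± 0.03 for Mog (SE; adjusted p = 5.37e-19), from edgeR's quasi-likelihood test, Benjamini-Hochberg adjusted.

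Aspa averaged 19.7 ± 0.377 CPM in icKO IP and 28.8 ± 0.446 CPM in control IP (SD, n = 2 each). Cnp averaged 2217 ± 13.3 CPM in icKO IP and 2955 ± 28.6 CPM in control IP, and Mag 1319 ± 19.8 CPM in icKO IP and 1618 ± 27.9 CPM in control IP (SD, n = 2 each). The pairs of libraries did not overlap for any of these genes. The log2 changes were -0.54 ± 0.09 for Aspa (SE; adjusted p = 7.57e-06), -0.40 ± 0.02 for Cnp (SE; adjusted p = 9.15e-18) and -0.28 ± 0.02 for Mag (SE; adjusted p = 1.43e-12), by the same edgeR test. Anln averaged 35.0 ± 1.72 CPM in icKO IP and 38.2 ± 5.27 CPM in control IP (SD, n = 2 each). Its log2 value was -0.12 ± 0.08 (SE; 95% interval -0.29 to 0.05; adjusted p = 0.236, edgeR's quasi-likelihood test), and the control IP libraries differed from each other 1.22-fold. Without control IP replicate 1 the Anln value was -0.25 (adjusted p = 0.0188, edgeR), and without control IP replicate 2 it was 0.028 (adjusted p = 0.849, edgeR).

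In all, 6 of 7 members were called lower, where 25.2% of the 15069 genes tested were, and none was called higher, where 22.1% of all genes were. Both icKO IP libraries were below both control IP libraries for 6 of 7 members and for 36.5% of all genes. The median log2 change was -0.54 over the members and 0.0033 over all genes. Of all genes tested, 1.23% had a lower log2 change than Opalin, 2.16% than Ermn, 2.34% than Mog, 6.88% than Aspa, 13.0% than Cnp, 21.4% than Mag and 37.0% than Anln. These falls are relative to all genes in the IP. A further scaling used the mature oligodendrocyte list, which leaves out the members. It set each library by the median, over the list's genes, of the count relative to the gene's geometric mean. It moved the median of all genes by 0.71. With it only Opalin was still called lower, at -0.19 (adjusted p = 0.0012, edgeR). Under that scaling Mag was higher at 0.43 (adjusted p = 2.24e-14), Cnp at 0.31 (adjusted p = 4.49e-11) and Anln at 0.60 (adjusted p = 2.23e-08), by the same edgeR test. Those 3 of 7 members called higher stand against 85.4% of all genes called higher under that scaling, and the member called lower against 0.584% of all genes.

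**Figure D3:**
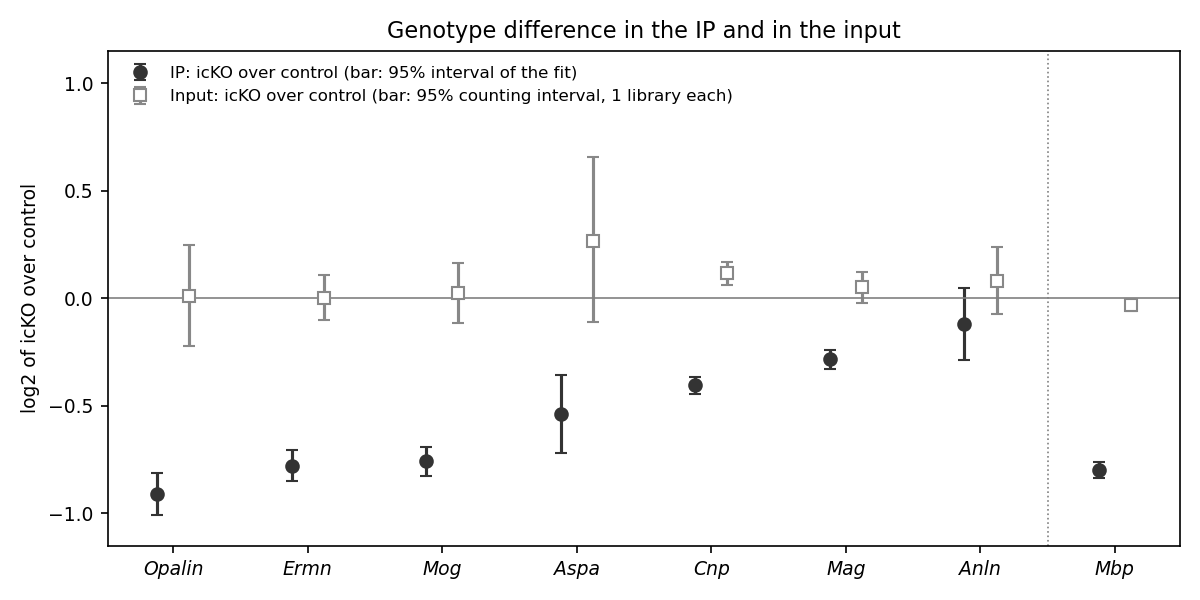
Log2 change of each member, and of Mbp right of the dotted line, in icKO against control, in IP with 95% intervals from edgeR and in input with exact 95% counting intervals. The members' IP values run from -0.91 for Opalin to -0.12 for Anln, and their input values from 0.0023 for Ermn to 0.27 for Aspa.

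**Figure D4:**
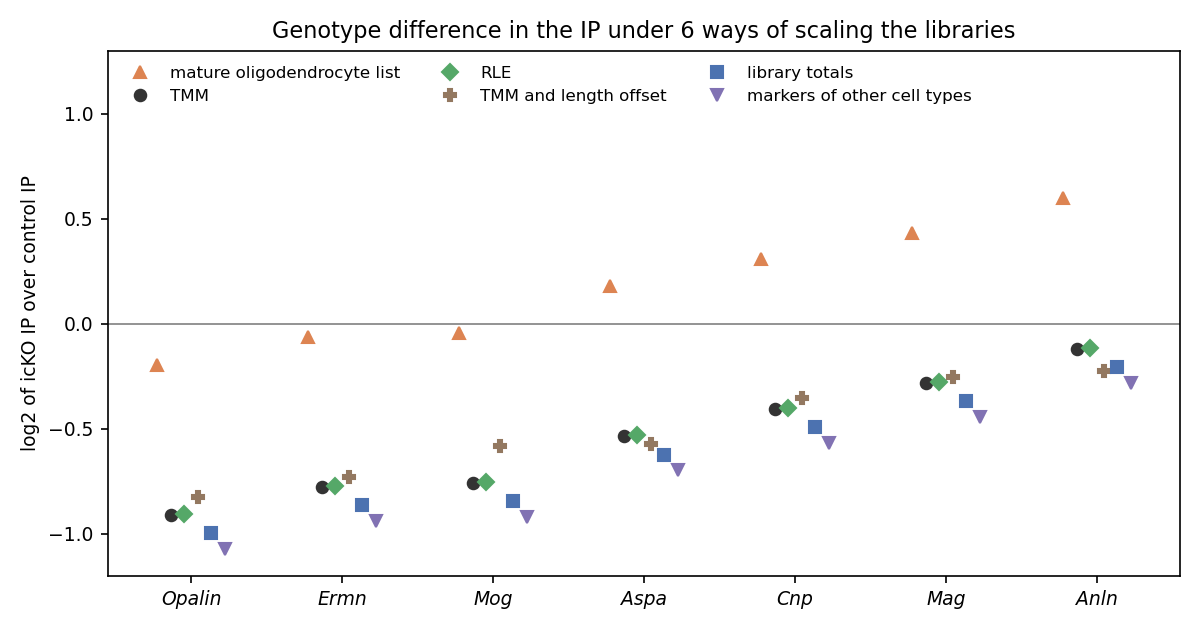
Log2 change of each member in icKO IP against control IP under each scaling of the libraries. Scaling to the mature oligodendrocyte list moves Mag to 0.43 and Cnp to 0.31, while Opalin stays below 0 at -0.19.

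In whole homogenate the members other than Aspa differed between the genotypes by a log2 of at most 0.12, with 1 library each and no test. The log2 ratio of icKO input over control input was 0.05 for Mag (exact 95% counting interval -0.02 to 0.12), 0.12 for Cnp (0.06 to 0.17) and 0.02 for Mog (-0.11 to 0.16). It was 0.01 for Opalin (-0.22 to 0.25), 0.0023 for Ermn (-0.10 to 0.11), 0.27 for Aspa (-0.11 to 0.66) and 0.08 for Anln (-0.07 to 0.24). Each ratio was above 0, and only the Cnp interval left 0 out. These intervals cover counting error only and not the spread between mice.

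The genotype change in IP was set against that in input as an interaction in the 4-group fit, with the same assumption about the lone inputs. The change in IP was the lower one for 6 of 7 members, where 13.9% of 15936 genes were called lower, and the median difference was -0.79 over the members and -0.01 over all genes. The difference was -0.93 ± 0.14 for Opalin (log2, SE; adjusted p = 6.64e-06), -0.79 ± 0.08 for Mog (adjusted p = 2.35e-08) and -0.79 ± 0.08 for Ermn (adjusted p = 4.43e-09) by edgeR's quasi-likelihood test, Benjamini-Hochberg adjusted. It was -0.53 ± 0.04 for Cnp (log2, SE; adjusted p = 1.14e-11), -0.34 ± 0.05 for Mag (adjusted p = 3.44e-06) and -0.21 ± 0.15 for Anln (95% interval -0.50 to 0.09; adjusted p = 0.34) by the same edgeR test. Aspa gave -0.81 ± 0.23 (log2, SE; adjusted p = 0.0092, edgeR), with an adjusted p of 0.0543 in DESeq2.

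The make-up of the members' summed counts, which no scaling of libraries changes, also moved. Mag made up 32.7% and 33.1% of the sum in icKO IP, 30.6% and 29.7% in control IP, 24.5% in icKO input and 24.97% in control input. Mog made up 4.19% and 4.15% in icKO IP, 5.27% and 5.34% in control IP, 6.90% in icKO input and 7.15% in control input. Opalin made up 1.60% and 1.65% in icKO IP, 2.27% and 2.31% in control IP, 2.44% in icKO input and 2.55% in control input. Mag thus took a larger share and Mog and Opalin smaller shares in icKO IP than in control IP, without overlap. Such non-overlap is common here: the ratios of 81.9% of all pairs of genes with at least 20 CPM did not overlap either. Aspa took 0.488% and 0.497% in icKO IP and 0.545% and 0.530% in control IP, with 1.01% in icKO input and 0.882% in control input. Cnp took 55.3% in both icKO IP libraries and 54.8% and 55.3% in control IP, with 47.8% in icKO input and 46.5% in control input. Ermn took 4.76% and 4.43% in icKO IP and 5.82% and 6.04% in control IP, with 11.8% in icKO input and 12.4% in control input. Anln, at 0.909% and 0.840% in icKO IP and 0.645% and 0.780% in control IP, took 5.60% in icKO input and 5.58% in control input.

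As ratios of counts, Mag to Mog was 2.966 and 2.996 on the log2 scale in icKO IP, 2.54 and 2.47 in control IP, 1.83 in icKO input and 1.80 in control input. Mag to Opalin was 4.36 and 4.33 in icKO IP, 3.75 and 3.68 in control IP, 3.33 in icKO input and 3.29 in control input. The icKO IP ratios were thus above those of control IP for both outer or membrane genes. Mog to Ermn overlapped between genotypes, at -0.19 and -0.09 in icKO IP and -0.14 and -0.18 in control IP, and so did Mag to Anln. In all, 19 of 21 pairs of members did not overlap between icKO IP and control IP, where 81.9% of all pairs of genes with at least 20 CPM did not, so the count is close to that of any genes. With 2 libraries against 2 the smallest exact permutation p is 0.333, and no ratio was tested.

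**Figure D5:**
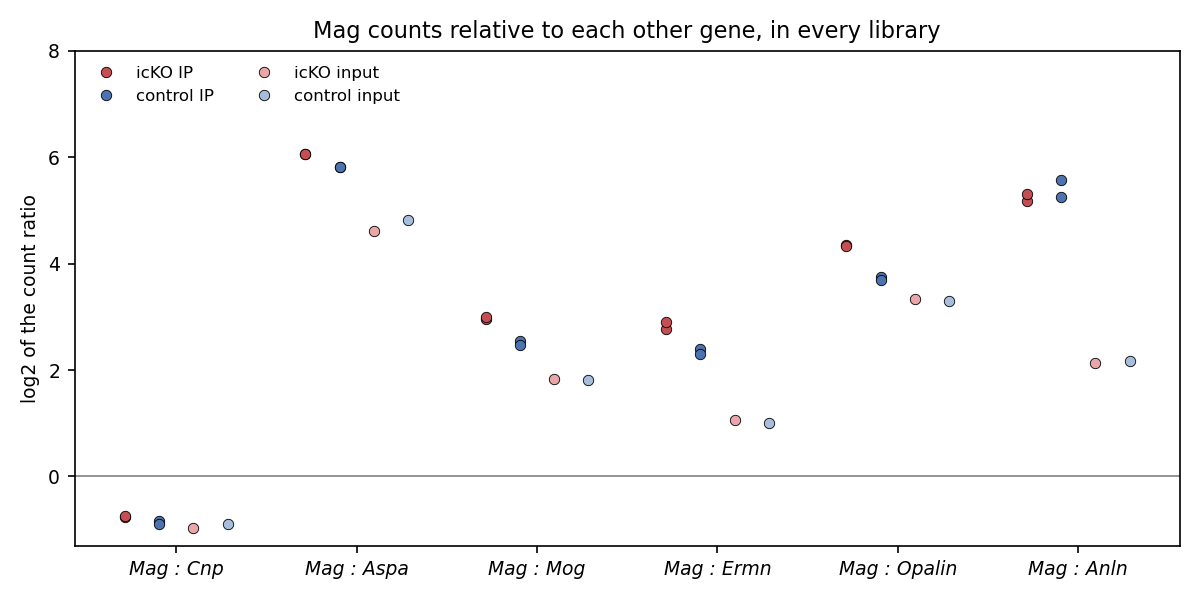
Log2 ratio of the Mag count to the count of each other member, 1 point for each of the 6 libraries, grouped as icKO IP, control IP, icKO input and control input. The ratio to Mog, Opalin and Ermn is higher in both icKO IP libraries than in both control IP libraries, and the ratio to Anln overlaps between the genotypes.

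Of the genes of compact myelin, 11 of 12 were called lower in icKO IP and none higher, with a median log2 change of -0.71. Of all genes, 25.2% were called lower and 22.1% higher. Mbp, which zips the cytoplasmic faces together, had 3467 and 3438 CPM in icKO IP and 6011 and 6101 CPM in control IP. The libraries of the genotypes did not overlap, and the log2 change of Mbp was -0.80 (adjusted p = 5.52e-27) by edgeR's quasi-likelihood test, Benjamini-Hochberg adjusted. The changes of Mog, at -0.76, and Ermn, at -0.78, lay close to that of Mbp, and those of Mag and Cnp were smaller. The compact gene not called was Pmp22, at -0.28 (adjusted p = 0.0873, edgeR). Under scaling to the mature oligodendrocyte list 4 of the 12 were higher and 4 lower, with a median of 0.0011, where 85.4% of all genes were called higher and 0.584% lower. Differences between the members and compact myelin genes as lists were not tested.

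Markers of other cells moved in the same libraries, where 25.2% of all genes were called lower and 22.1% higher. Of mature oligodendrocyte markers other than the members, 35 of 39 were lower and 2 higher in icKO IP, with a summed level of 17433 to 17569 CPM in icKO IP and 29139 to 29407 CPM in control IP. Of precursor markers 20 of 24 were lower and 1 higher (median -0.30), and of pericyte and smooth muscle markers 13 of 14 were lower and 1 higher (median -0.84). Their sums were 11434 to 11547 CPM in icKO IP and 13284 to 13430 CPM in control IP for precursors, and 2011 to 2060 CPM in icKO IP and 2922 to 2964 CPM in control IP for pericytes. Neuronal markers summed to 5812 to 5831 CPM in icKO IP and 4873 to 4918 CPM in control IP, with 9 of 20 higher and 5 lower. Astrocyte markers summed to 2311 to 2353 CPM in icKO IP and 2335 to 2339 CPM in control IP, microglial markers to 109 to 111 CPM in icKO IP and 93.8 to 104 CPM in control IP, and endothelial markers to 280.2 to 291 CPM in icKO IP and 361 to 368 CPM in control IP. Under scaling to the mature oligodendrocyte list 21 of 24 precursor markers and 20 of 20 neuronal markers were called higher, where 85.4% of all genes were. The part of these cell types in the members' change was not tested. Schwann cells also make Mag and Cnp. Of 9 tested Schwann cell markers 1 was higher and 1 lower, and their defining genes Pmp2 and Foxd3 had no count in any library.

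For the roles of single members, partner genes were counted in icKO IP against control IP. Of all genes tested there, 25.2% were called lower and 22.1% higher. Of 16 tested myelin gene regulators, 11 were lower and 2 higher (median -0.38), among them Myrf at -0.42 (adjusted p = 5.48e-15) and Sox10 at -0.42 (adjusted p = 2.61e-15) by edgeR's quasi-likelihood test. The higher ones were the chromatin remodellers Chd8, at 0.21, and Smarca4, at 0.11, neither of which was called when libraries were scaled to markers of other cell types (0.05 for Chd8 and -0.05 for Smarca4). Scaled to the mature oligodendrocyte list, which moves the median of all genes to 0.72, Myrf stood at 0.29 and Sox10 at 0.30. Under that scaling 85.4% of all genes were called higher, as were 15 of the 16 regulators, 15 of 18 genes linked to Mag, 15 of 16 actin linkers, 10 of 13 genes around N-acetylaspartate and 8 of 9 scaffold partners of Anln, with none called lower. Against that share these counts are not results about the lists.

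The 18 genes linked to Mag include receptors for myelin proteins on axons and enzymes that build the gangliosides Mag binds. Of them 3 were lower and 1 higher, with a median of -0.06. Both counts are below the shares of all genes, 25.2% lower and 22.1% higher. The lower ones were Rtn4 (Nogo) at -0.43, the Src-family kinase Fyn at -0.31 and the sialyltransferase St8sia1 at -0.21, and the higher one was the endocytic receptor Lrp1 at 0.11. With scaling to markers of other cell types, which calls 40.3% of all genes lower, Lrp1 was called lower at -0.05 (adjusted p = 0.0484, edgeR) and 11 of the 18 were lower and none higher. With library totals, which call 33.0% of all genes lower, 8 were lower and none higher. The Nogo receptor Rtn4r stood at 0.11 (adjusted p = 0.488) and its relative Rtn4rl1 at -0.05 (adjusted p = 0.707) by the edgeR test.

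Of 16 actin linkers and regulators set beside Ermn, 12 were lower and 2 higher (median -0.22), against 25.2% and 22.1% of all genes. Rdx (radixin) was lower at -0.25. The higher ones were Ezr (ezrin) at 0.30 and the actin-severing protein Gsn at 0.08, and neither held with scaling to markers of other cell types. There Ezr was not called at 0.14 (adjusted p = 0.235, edgeR) and Gsn was called lower at -0.09 (adjusted p = 0.0035, edgeR). Under that scaling 15 of the 16 were lower and none higher, where 40.3% of all genes were called lower and 11.5% higher.

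The 13 tested genes around N-acetylaspartate make, carry or split it or related compounds or handle its building blocks aspartate and acetate. Of them 5 were lower and 2 higher, with a median of -0.01, where 25.2% of all genes were lower and 22.1% higher. The lower ones were the transporter Slc13a3 at -0.59, the peptidase Naalad2 at -0.84, the acetyl-CoA synthetase Acss1 at -0.24, the aspartate aminotransferase Got2 at -0.20 and the aminoacylase Acy3 at -1.03. The higher ones were Rimkla, which joins N-acetylaspartate to glutamate, at 0.44, and the peptidase Folh1 at 0.39, or 0.23 and not called with scaling to markers of other cell types. Nat8l, the enzyme that makes N-acetylaspartate, stood at 0.05 (adjusted p = 0.477, edgeR).

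Beside Anln, 6 of 9 tested scaffold partners were lower and 2 higher (median -0.43), against 25.2% and 22.1% of all genes. The small GTPase Cdc42 stood at -0.34 and its effector Cdc42ep1 at -0.46. The higher ones were both genes of cell division, Cit at 0.33 and Racgap1 at 0.45. Several septins could not be matched by symbol and are not analysed here. Since Anln also acts in cell division, genes of dividing cells were counted: 15 of 20 were higher in icKO IP, where 22.1% of all genes were, and none lower, with a median of 0.51 and sums of 199 to 204 CPM in icKO IP and 139 to 141 CPM in control IP. Mki67 rose by 0.48 and Top2a by 0.55 on the log2 scale. The median of this list stayed above 0 under each scaling, with 10 to 19 of 20 called higher and none lower. The lowest gene stood at -0.45 and was not called. In the interaction with input, 1 of 20 was called higher and none lower (median 0.20), where 9.67% of all genes were called higher and 13.9% lower. The list summed to 42.1 CPM in icKO input and 36.3 CPM in control input. Of all genes, 11.5% were called higher with scaling to markers of other cell types and 85.4% with the mature oligodendrocyte list. In IP over input, 19 of the 20 were higher with a median of 2.23, where 34.2% of all genes were higher, whereas Anln stood at 0.18.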

How the data were processed

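RNA from HA pull-down or whole homogenate in 6 libraries was sequenced with the Takara SMARTer Stranded Total RNA v3 Pico kit, per the labels' protocols. The deposited values are raw read counts per gene symbol, not normalized by the authors, per the file headers. The submitters' processing notes name Trimmomatic 0.39, STAR 2.7.10b and mm10. Nothing on the counter, its annotation, its strand setting or molecular identifiers is given in the sources used here, and PCR copies may therefore be counted.

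Of 24421 genes, 10 with no input value were left out, and 4697 of the other 24411 had no count. Library totals were 19569611 and 18968806 in icKO IP, 20754765 and 23930812 in control IP, 19919520 in icKO input and 21129973 in control input. Groups came from the titles, except that icKO IP replicate 1, titled cKO, was placed by its genotype label. Counts were tested with edgeR 4.0.16 in R 4.3.3 (quasi-likelihood test, two-sided, TMM scaling, filterByExpr, p adjusted by Benjamini-Hochberg over all genes tested, threshold 0.05). The genotypes were compared over the 4 IP libraries (2 residual degrees of freedom), IP with input over all 6 with genotype as a term, and the within-genotype values and the interaction in a fit of 4 groups. Each member passed the low-count filter in every fit. Input ratios used a prior count of 2. Levels per kb used the longest principal transcript of GENCODE vM21, and promoters came from RefSeq. Of 242 symbols in 15 lists, 237 were in the file, and 21 were in more than 1 list. Another 27 symbols in the file had been turned into dates. The members and lists were chosen with earlier results of these data known. Named were the members, Ank3, Rpl22, Mbp, the first 2 genes of a list, those singled out by a count of 5 or fewer, and 5 genes whose profile was nearest that of the members. Some genes that this rule names are not reported here.

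The script was tested on simulated data for the genotype comparison in IP, with 15032 genes, and recovered 82% of 100 genes changed by a log2 of 0.5 and 95% of 100 changed by 1, with 5 false calls among 182. Alternatives were other scalings (size factors, library totals, a median over mature oligodendrocyte markers, and a sum over markers of other cell types). The rest were DESeq2 1.42.0, other low-count filters, a transcript length offset, a replicate block and leaving out each library.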

Additional observations from a re-analysis of the deposited data

Results flagged for a closer look

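The genotype change in IP differed from that in input by the interaction test of edgeR for 6 of the 7 members, where 13.9% of all genes tested were called lower. The differences on the log2 scale, as the change in IP minus that in input, were -0.34 for Mag, -0.53 for Cnp, -0.79 for Mog, -0.93 for Opalin, -0.79 for Ermn and -0.81 for Aspa. Each rests on 1 input library for each genotype.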

How the results depend on the processing

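For the genotype change in IP, 87 of 98 values of single members under alternatives kept their direction and their side of the threshold, and the count of members lower was 7 in place of 6 wherever Anln was called lower. Scaling to the mature oligodendrocyte list reversed Mag (0.43), Cnp (0.31), Aspa (0.18, adjusted p = 0.0725, edgeR) and Anln (0.60), took the call from Mog (-0.04, adjusted p = 0.315, edgeR) and Ermn (-0.06, adjusted p = 0.161, edgeR), and left 1 member lower and 3 higher, where 85.4% of all genes were called higher. Anln was called lower with library totals (-0.21), with scaling to markers of other cell types (-0.28) and with the length offset (-0.22), and leaving out each library put it between -0.25 and 0.028. Leaving out each IP library gave -0.31 to -0.27 for Mag, -0.42 to -0.40 for Cnp, -0.77 to -0.75 for Mog, -0.94 to -0.88 for Opalin, -0.83 to -0.73 for Ermn and -0.56 to -0.52 for Aspa. Within icKO the enrichment of Anln was -0.033 with library totals. As a share of the mature oligodendrocyte list in place of the members' sum, Aspa reversed to 0.19, and the other 6 moved, Mag to 0.45, Cnp to 0.33, Mog to -0.03, Opalin to -0.18, Ermn to -0.05 and Anln to 0.62 (log2, icKO IP minus control IP). The cause of these changes was not tested. Over all genes, lower calls were 53.3% of calls, against 67.4% with library totals, 77.8% with markers of other cell types and 0.679% with the mature oligodendrocyte list. The interaction called 2222 genes lower and 1541 higher in edgeR, and 1135 lower and 694 higher in DESeq2. Same-numbered libraries did not deviate together (correlation 0.0052 over 5925 genes). A replicate block called 3876 genes lower and 3401 higher, and 6 members lower. The lone inputs limit the enrichment within a genotype, and the low counts of Aspa in input limit its interaction.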

Other observations

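The genes whose profile over the 6 libraries was most like the members' mean profile were Cdo1, Sox4, Cers2, Cpm and Lbh, by the smallest root mean square difference of centred log2 CPM among 7793 genes of at least 20 CPM. The difference was 0.02 for Cdo1, 0.04 for Sox4 and Cers2, 0.05 for Cpm and 0.06 for Lbh. Among the members themselves it was 0.09 for Aspa, 0.12 for Mog, 0.24 for Opalin and for Ermn, 0.47 for Cnp, 0.53 for Mag and 0.99 for Anln. Cdo1, cysteine dioxygenase, had 64.6 and 64.8 CPM in icKO IP and 95.8 and 95.03 CPM in control IP, against 16.6 CPM in icKO input and 15.7 CPM in control input. Cers2, a ceramide synthase of very long chain lipids, had 98.3 and 90.4 CPM in icKO IP and 133 and 144 CPM in control IP, against 24.4 CPM in icKO input and 24.0 CPM in control input. Both were chosen for this likeness, so their order of groups is a description.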
